A study of Mus musculus with 59 samples.

Results

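The solute carrier genes encode a large group of membrane transporters, and those described here had a named H3K4me3 peak in the mouse uterus. They were taken from the deposited H3K4me3 table as every gene whose symbol is Slc followed by a family number, a or b, and a member number. Each was represented by its peak of the highest mean level over 27 libraries, and by the H3K27ac peak that this peak overlapped most, where there was one. Of 15809 genes named in that table, the members are 202 genes with such an H3K27ac peak and 44 without one. Solute carrier families with other subfamily letters and the Slco genes fall outside that name pattern.

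The series measured 2 histone marks by native chromatin immunoprecipitation and sequencing in uteri of C57/B6 mice across reproductive ageing. H3K4me3 lies at promoters, and H3K27ac at active promoters and enhancers. There were 7 young mice of 9 to 11 weeks, 4 mice of 28 to 36 weeks (aged group 1), 6 of 42 to 48 weeks (aged group 2) and 10 of 54 to 65 weeks (aged group 3). All were untreated as far as the labels say, each mouse gave 1 library per mark, and 5 input libraries were not used here. The tissue label is uterus, whereas the protocol speaks of pieces of frozen endometrium, the inner layer of the uterus.

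Solute carriers move ions, sugars, amino acids, nucleosides, lipids, vitamins and metals across the plasma membrane and the membranes of organelles. Most are exchangers, which swap one solute for another, or cotransporters, which use a sodium or proton gradient to pull their substrate along. In the uterus the luminal and glandular epithelium uses them to set the ions, pH, glucose and amino acids of the fluid in which an embryo implants. The stroma uses glucose transporters when it decidualises, and smooth muscle uses sodium/calcium exchangers and anion exchangers to control its calcium and pH.

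All levels below are quantile-normalized log2 RPKM, that is, log2 of reads divided by peak length and library size, brought to a common distribution over the 27 libraries of a mark. Differences are log2 differences of group means ± SE from a limma fit over all peaks, two-sided, with p-values adjusted by Benjamini-Hochberg over all peaks of the mark and a threshold of 0.05. Libraries held 6.835 M to 48.29 M reads for H3K4me3 and 7.604 M to 16.945 M for H3K27ac, and the median member peak held 262.5 H3K4me3 reads and 100 H3K27ac reads per library. In 4 H3K4me3 libraries (young replicate 5, aged group 1 replicate 4, aged group 2 replicate 1 and aged group 3 replicate 6) the share of reads in peaks was low, 36.3% to 46.6%, against up to 75.8% elsewhere. Mouse numbers under 100 made up 6 of 7 young mice, none of aged groups 1 and 2, and 3 of 10 mice of aged group 3. Each library also carries a code, whose opening digit was 6 for 3 mice of aged group 3, 1 of aged group 2 and 0 of the other groups. Both labels were thus unevenly spread over the ages, so a term for either cannot be fully told apart from age. The tissue is a mixture of cells, so fewer cells of a type and less of a mark per cell cannot be told apart. The steroid receptor genes Esr1 and Pgr, which mark uterine cells, had mean H3K4me3 levels of 4.37 and 4.13. Of 9 genes that mark the uterus, 4 were measured, and Pax8 and Lhx1, which are among them, had mean levels of 3.73 and 1.74.

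Promoter sequences of RefSeq (GRCm38.p6, 250 bases before to 50 bases after a gene start) were found for 190 members and not looked for elsewhere for the other 56. The 7 printed are the promoters that lie in the peaks on which the comparison of old with young uteri turns, 3 higher and 3 lower in aged group 3, and the promoter of the member with the highest level, as a contrast. Capitals mark motifs, each searched on both strands and independently of the others. The GC box has the letters GGGCGG. The letters of the TATA box were TATAAA. For the CCAAT box they are those of its name.
Slc28a3, chr13:58610828-58611127, minus strand: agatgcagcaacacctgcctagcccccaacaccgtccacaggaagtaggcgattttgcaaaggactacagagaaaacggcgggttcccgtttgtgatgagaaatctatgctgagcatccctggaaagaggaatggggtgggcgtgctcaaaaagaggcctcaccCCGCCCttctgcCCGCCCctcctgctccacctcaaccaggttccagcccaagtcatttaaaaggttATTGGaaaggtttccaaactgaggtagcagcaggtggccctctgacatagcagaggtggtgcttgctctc
Slc27a2, chr2:126552774-126553073, plus strand: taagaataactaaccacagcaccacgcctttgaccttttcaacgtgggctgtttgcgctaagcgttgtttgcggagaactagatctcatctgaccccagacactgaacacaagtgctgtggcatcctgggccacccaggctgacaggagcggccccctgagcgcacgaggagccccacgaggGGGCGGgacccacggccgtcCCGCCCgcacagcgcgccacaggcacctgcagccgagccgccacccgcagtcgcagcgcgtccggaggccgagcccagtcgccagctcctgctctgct
Slc15a2, chr16:36784913-36785212, minus strand: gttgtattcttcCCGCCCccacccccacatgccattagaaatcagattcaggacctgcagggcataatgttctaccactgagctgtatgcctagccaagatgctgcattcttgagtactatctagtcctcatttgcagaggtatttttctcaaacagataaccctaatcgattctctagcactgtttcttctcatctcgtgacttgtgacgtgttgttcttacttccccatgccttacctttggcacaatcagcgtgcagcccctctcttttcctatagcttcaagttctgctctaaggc
Slc24a3, chr2:145167525-145167824, plus strand: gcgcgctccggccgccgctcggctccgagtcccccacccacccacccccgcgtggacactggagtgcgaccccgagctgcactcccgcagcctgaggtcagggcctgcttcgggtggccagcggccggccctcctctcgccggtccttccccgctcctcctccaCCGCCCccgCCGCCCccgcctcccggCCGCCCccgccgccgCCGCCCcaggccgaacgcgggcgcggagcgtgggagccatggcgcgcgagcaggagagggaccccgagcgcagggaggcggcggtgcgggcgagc
Slc2a13, chr15:91573212-91573511, minus strand: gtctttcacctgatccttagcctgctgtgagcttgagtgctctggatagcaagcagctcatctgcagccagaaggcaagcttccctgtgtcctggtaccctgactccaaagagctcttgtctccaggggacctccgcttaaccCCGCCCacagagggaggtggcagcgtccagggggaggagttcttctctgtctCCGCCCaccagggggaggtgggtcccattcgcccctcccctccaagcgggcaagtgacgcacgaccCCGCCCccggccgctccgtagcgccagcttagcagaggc
Slc43a1, chr2:84840073-84840372, plus strand: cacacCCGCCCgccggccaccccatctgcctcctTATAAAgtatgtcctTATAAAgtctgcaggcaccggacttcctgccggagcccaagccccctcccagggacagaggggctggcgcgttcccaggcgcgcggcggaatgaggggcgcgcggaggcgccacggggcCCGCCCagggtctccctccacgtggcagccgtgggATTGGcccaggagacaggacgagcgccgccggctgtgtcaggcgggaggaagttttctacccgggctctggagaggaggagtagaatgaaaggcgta
Slc35a5, chr16:45158624-45158923, minus strand: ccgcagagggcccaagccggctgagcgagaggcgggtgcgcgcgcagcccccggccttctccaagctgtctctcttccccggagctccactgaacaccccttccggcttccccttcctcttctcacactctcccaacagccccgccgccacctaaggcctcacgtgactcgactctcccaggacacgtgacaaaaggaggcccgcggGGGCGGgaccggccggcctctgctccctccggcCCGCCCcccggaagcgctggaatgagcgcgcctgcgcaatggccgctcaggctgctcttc
The Slc15a2 promoter held 46.3% G and C with 5 CpG dinucleotides, and that of Slc28a3 54.7% with 8. The Slc24a3 promoter held 80.7% with 43 CpG dinucleotides, and that of Slc35a5 70.3% with 28. Slc43a1 is the promoter among them with a TATA box, while a GC box occurred in all 7. Over the 151 members with a start of the table inside their peak, the median was 62.0% G and C, and 76.2% held a GC box, 5.96% a TATA box and 36.4% a CCAAT box. In all 32851 promoters of the table the median was 52.7%, and the shares were 35.7%, 13.6% and 37.4%. The nearer background, 15906 promoters with a start inside any H3K4me3 peak, had 61.3% G and C, with 63.7%, 6.55% and 36.5%. A GC box was found in 11 of 20 promoters of members higher in aged group 3, in 21 of 26 of those lower and in 83 of 105 of the rest. These are matches to short letters in a fixed window and say nothing of the factors bound there.

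The marks at these genes mostly sat at gene starts. The member peak covered a RefSeq start of its gene in 194 cases and lay within 1000 bp of one in 203 (82.5%), against 80.6% of all named genes with a RefSeq start. Median H3K4me3 over all members was 3.41, against 3.53 over the highest peak of every named gene and 2.70 over all peaks. The highest level was at Slc35a5, a relative of the Golgi nucleotide-sugar transporters, with 4.88. Slc38a9, a lysosomal arginine sensor, followed with 4.86, and then came Slc25a32, the mitochondrial folate and FAD carrier (4.60), Slc30a6, a Golgi zinc transporter (4.59), and Slc25a26, the mitochondrial carrier of S-adenosylmethionine (4.56). The peaks of Slc35a5 and Slc25a32 also overlapped Atg3 and Dcaf13, so these levels are shared with a neighbour, as was the case at 52 members. The peak of Slc25a37, the mitoferrin of blood-forming cells, held 0 reads in the median library and lay 29060 bp from its start, so its level of -3.24 is that of a peak without reads. Further peaks of this gene had -5.0 at the start and -4.48 at 3297 bp from it. Why so few reads fell there was not tested. Above Slc25a37 came Slc28a2 (0.34), a sodium/nucleoside cotransporter, Slc15a3 (0.41), a lysosomal peptide transporter, Slc34a2 (0.66), an epithelial sodium/phosphate cotransporter, and Slc26a9 (0.88), an epithelial chloride transporter.

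Families differed in median level. Nucleotide-sugar transporters of the Golgi had a median of 4.09 over 7 genes, and mitochondrial carriers 3.77 over 37. Zinc transporters had 3.72 over 18 genes, amino acid transporters 3.29 over 42, and sugar transporters 3.02 over 25. Calcium exchangers (2.52, 6 genes), organic ion and drug transporters (2.50, 26 genes) and phosphate transporters (1.60, 4 genes) were lowest. Within a family the genes often spread wider than these medians, as among amino acid transporters, from 0.91 to 4.86, and the plot of levels by family shows each gene.

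**Figure D1:**
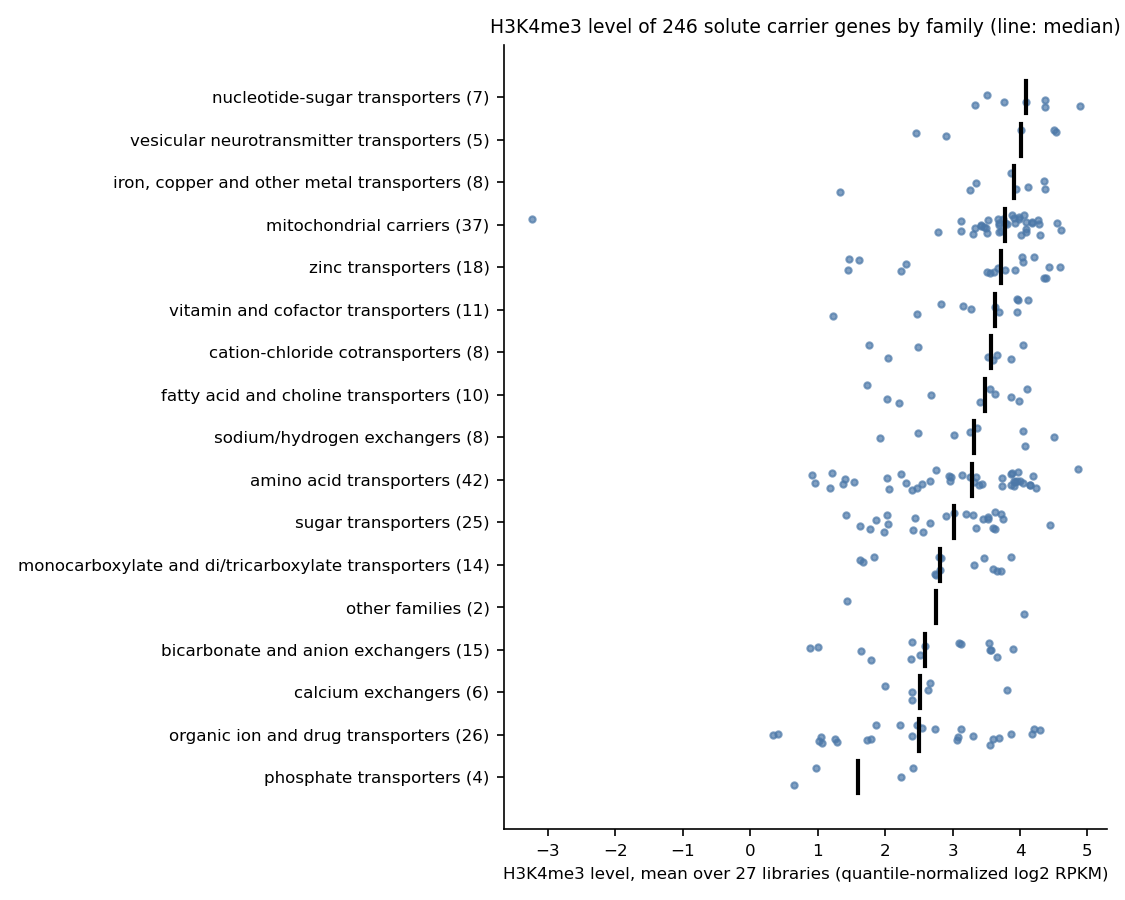
H3K4me3 level (mean of 27 libraries, quantile-normalized log2 RPKM, horizontal axis) of each member, one point per gene, by family with the number of genes in brackets; the black line is the family median. Nucleotide-sugar transporters (4.09) and mitochondrial carriers (3.77) lie to the right and phosphate transporters (1.60) to the left, and the single point at -3.24 is Slc25a37.

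The oldest and the youngest uteri were set against each other first, to ask which transporter genes differ in their marks. H3K4me3 rose at 29 solute carrier genes, fell at 47 and did not pass at 170, so that 30.9% of members were called, beside 30.7% of all peaks. The split leant to losses, with 11.8% of members higher and 19.1% lower, beside 14.2% and 16.4% of all peaks, and beside 10.3% and 17% when each named gene counted once. In the values as deposited, without quantile normalization, 11 members rose (4.47%) and 31 fell (12.6%), beside 8.44% and 14.2% of all peaks. The share of members called was thus near that of the genome, and what follows describes which transporters they were. The gains included nucleoside, peptide, fatty acid, glucose, zinc, iron and riboflavin carriers, and the losses amino acid, noradrenaline, inositol, calcium, monocarboxylate and chloride carriers. Direction did not follow the substrate: nucleoside, fatty acid, glucose, zinc, amino acid and monocarboxylate carriers were called both higher and lower. In size, 7 of the 29 gains and 11 of the 47 losses were larger than 2-fold, and the median difference was 0.66 among gains and -0.63 among losses, values that the call itself selects.

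**Figure D2:**
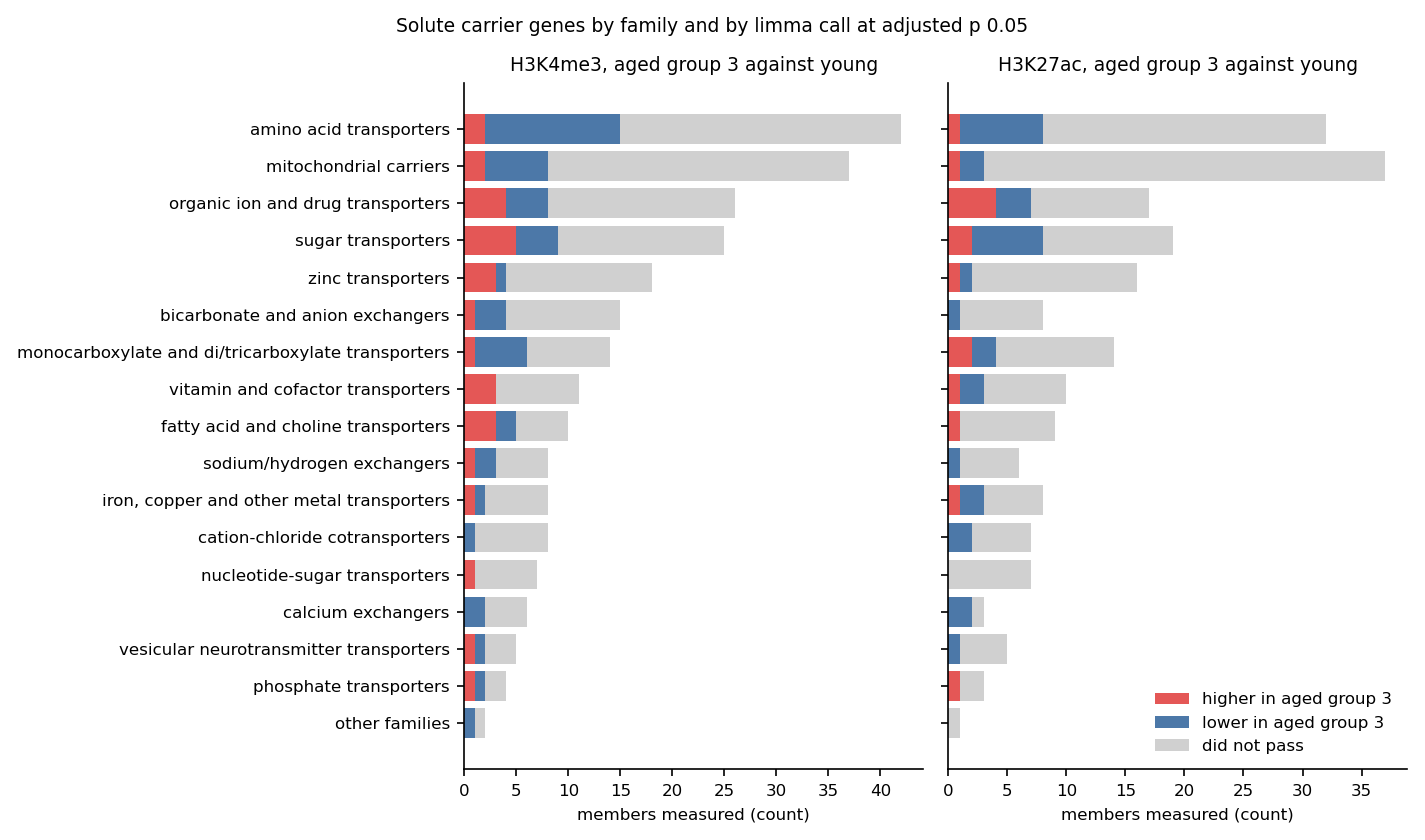
Number of measured members in each family (horizontal axis, count) that were higher in aged group 3, lower in aged group 3 or did not pass, at a limma adjusted p of 0.05, for H3K4me3 (left, all members) and H3K27ac (right, 202 genes). Among 42 amino acid transporters 2 were higher and 13 lower in H3K4me3, whereas 3 of 11 vitamin carriers were higher and 0 lower.

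The nucleoside carrier Slc28a3, which takes up purine and pyrimidine nucleosides with sodium, had the largest gain. Its H3K4me3 level was 2.48 at the lowest, 3.79 at the median and 4.58 at the highest in aged group 3, against 0.03, 1.67 and 2.11 in young. The groups did not overlap: every library of aged group 3 was above every young one. The difference was 2.29 ± 0.38 (adjusted p = 0.000188). Its peak, 5993 bp long on chromosome 13 from 58605195 to 58611187, covers the promoter shown above and held a median of 583.5 reads in aged group 3 and 173 reads in young. A further peak named Slc28a3 averaged 1.23 in aged group 3 and -2.38 in young, 3.61 ± 0.59 apart (adjusted p = 0.000175). Of 4 peptide carriers of the same list, 2 rose. Slc15a2, which recovers di- and tripeptides in epithelia, had 2.32, 3.86 and 4.38 in aged group 3 (lowest, median, highest), against 1.44, 2.36 and 3.06 in young, a difference of 1.14 ± 0.24 (adjusted p = 0.00156). There 8 of 10 libraries of aged group 3 were above every young one. Slc15a1, the intestinal peptide carrier, differed by 0.66 ± 0.22 (adjusted p = 0.0269), and Slc22a18, an imprinted organic cation carrier, by 0.57 ± 0.18 (adjusted p = 0.0218). Of the 26 organic ion and drug transporters these 4 rose and 4 fell, among them Slc29a3, a lysosomal nucleoside carrier (-0.36 ± 0.09, adjusted p = 0.00397).

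The fatty acid and choline carriers held 3 gains and 2 losses among 10. Slc27a2, which couples fatty acid uptake to very-long-chain acyl-CoA synthesis, had 1.47, 3.23 and 4.24 in aged group 3, against 0.99, 1.45 and 2.03 in young (lowest, median, highest). Here 8 libraries of aged group 3 lay above every young one, and the other 2 lay within the young range. The difference was 1.68 ± 0.32 (adjusted p = 0.000748). Slc44a2 and Slc44a3, which belong to the choline transporter-like family, differed by 0.61 ± 0.19 and 0.55 ± 0.14. In the opposite direction Slc27a6, the fatty acid carrier best known from heart, had 0.66, 1.60 and 2.32 in aged group 3, against 2.21, 2.65 and 3.05 in young. That is a difference of -1.13 ± 0.23 (adjusted p = 0.00115), with 9 of 10 libraries of aged group 3 below every young one.

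The largest margin over its error was at Slc4a9, an epithelial anion exchanger of the bicarbonate family. Its levels were 1.91, 3.50 and 3.96 in aged group 3, against 0.93, 1.65 and 1.77 in young, with no overlap between the groups. The difference was 1.77 ± 0.22 (adjusted p = 5.31e-06). Its peak lies on chromosome 18 from 36541253 to 36542537, 13187 bp from the nearest RefSeq start, and no H3K27ac peak overlapped it. The other anion exchangers of the list that passed were lower. Slc4a3, the chloride/bicarbonate exchanger of muscle and brain, had 1.85, 3.18 and 3.96 in aged group 3 and 3.68, 3.97 and 4.09 in young (-0.82 ± 0.19, adjusted p = 0.00336). Slc4a10 and Slc26a10 fell too, by 0.70 and 0.53, and 11 of 15 members did not pass.

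Of 25 sugar transporters, 5 rose and 4 fell, and the members with the largest gain and the largest loss do not carry glucose. Slc5a8, a sodium-coupled carrier of short-chain fatty acids and lactate, had 2.08, 3.03 and 3.46 in aged group 3 and 1.73, 2.10 and 2.54 in young, with 9 of 10 libraries above every young one (0.94 ± 0.21, adjusted p = 0.00232). Slc2a13, the proton/inositol cotransporter, had 1.23, 1.89 and 2.83 in aged group 3 and 2.35, 2.99 and 3.25 in young (-0.95 ± 0.19, adjusted p = 0.00103). Slc5a11, a sodium/inositol cotransporter, spread most of all members in aged group 3, with -3.23, -0.98 and 3.81, against 2.73, 3.05 and 3.59 in young (-3.07 ± 0.94, adjusted p = 0.0158). Its peak lay farther than 1000 bp from a start. Replicates 4 and 5 of aged group 3 differed from the young mean by 0.19 and 0.70, the rest of that group by -6.34 to -0.94. In aged group 2, replicates 5 and 6 differed by -5.37 and -6.28 and the rest by -0.20 to 0.14. The main glucose carriers moved in opposite directions. Slc2a1 (GLUT1), used by epithelium and decidua, had 3.22, 3.65 and 3.85 in aged group 3 and 3.17, 3.26 and 3.51 in young (0.29 ± 0.10, adjusted p = 0.0221), a call lost in the values as deposited and without young replicate 6. Slc2a3 (GLUT3) had 3.00, 3.40 and 3.95 in aged group 3 and 3.82, 3.89 and 4.12 in young (-0.51 ± 0.13, adjusted p = 0.00458). Slc5a1, the intestinal sodium/glucose cotransporter, differed by 0.80 ± 0.25 (adjusted p = 0.0195).

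The metal and vitamin carriers that passed in H3K4me3 were mostly higher, which did not hold in H3K27ac. Of 18 zinc transporters 3 rose and 1 fell. Slc39a2, a zinc importer, had 0.05, 2.66 and 3.79 in aged group 3 and -1.45, 0.30 and 1.37 in young (1.79 ± 0.44, adjusted p = 0.00436), and 7 of 10 libraries were above every young one. Slc39a4, the intestinal zinc importer, differed by 1.03 ± 0.25 (adjusted p = 0.00386) and Slc39a8, which imports zinc and manganese, by 0.52 ± 0.12 (adjusted p = 0.00338). Slc39a10 fell by 0.16 on the log2 scale, a difference of -0.16 ± 0.06. Slc40a1 (ferroportin), the cellular iron exporter, had 3.84, 4.82 and 5.24 in aged group 3 and 3.90, 3.98 and 4.37 in young (0.66 ± 0.16, adjusted p = 0.00362). Among 8 genes of iron, copper and other metals it was the only gain, and Slc41a3, which belongs to a family of magnesium carriers, the only loss (-0.39 ± 0.13). Vitamin carriers had 3 gains and 0 losses among 11. Slc52a3, the riboflavin carrier of intestine, had 2.21, 3.30 and 3.63 in aged group 3 and 2.24, 2.45 and 2.59 in young (0.73 ± 0.17, adjusted p = 0.0033), Slc23a4 differed by 0.65 ± 0.20 and Slc19a2, a thiamine carrier, by 0.23 ± 0.07. No p for a family against the other genes was computed, so these counts stand only beside the 14.2% and 16.4% of all peaks.

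Of 42 amino acid and neurotransmitter carriers 13 fell and 2 rose, with a median difference of -0.17, against -0.06 over all members and -0.02 over all peaks. Slc1a2 and Slc1a3 are the sodium-driven glutamate carriers best known from astrocytes. Slc1a2 had 0.82, 1.83 and 3.03 in aged group 3 and 2.69, 2.95 and 3.26 in young (-1.14 ± 0.23, adjusted p = 0.0013), at a peak 46819 bp from its start. Slc1a3 had 3.16, 3.50 and 4.30 in aged group 3 and 4.02, 4.21 and 4.24 in young (-0.57 ± 0.13, adjusted p = 0.00242). Slc43a1, a carrier of large neutral amino acids, had 2.01, 2.96 and 3.69 in aged group 3 and 3.50, 3.81 and 4.06 in young (-0.89 ± 0.19, adjusted p = 0.00141). Slc6a2, which takes up noradrenaline rather than an amino acid, had -0.85, 0.32 and 2.53 in aged group 3 and 1.41, 2.55 and 3.05 in young (-1.74 ± 0.40, adjusted p = 0.00293). In both Slc43a1 and Slc6a2, 7 of 10 libraries of aged group 3 were below every young one. Slc36a4 and Slc38a4, carriers of small neutral amino acids, fell by 1.06 and 1.04 on the log2 scale. The 2 gains were at Slc6a5, a glycine carrier of neurons (0.66 ± 0.17, adjusted p = 0.00615), and Slc6a15 (0.27).

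Some calcium, chloride and monocarboxylate carriers fell. Slc24a3, a potassium-dependent sodium/calcium exchanger found in uterine smooth muscle, had 0.92, 1.79 and 2.92 in aged group 3 and 2.55, 2.93 and 3.25 in young (-1.14 ± 0.22, adjusted p = 0.000922). Slc8a2, a sodium/calcium exchanger of neurons, had 0.95, 1.66 and 2.26 in aged group 3 and 2.19, 2.48 and 2.81 in young (-0.92 ± 0.21, adjusted p = 0.00263), and 2 of 6 calcium exchangers were thus lower and 0 higher. Slc12a4, the potassium/chloride cotransporter KCC1, had 2.56, 3.34 and 3.92 in aged group 3 and 3.75, 3.96 and 4.07 in young (-0.67 ± 0.15, adjusted p = 0.00245). At each of these 3 genes 8 of 10 libraries of aged group 3 lay below every young one. Slc12a4 was the 1 of 8 cation-chloride cotransporters that passed, and the median difference of these 8 was 0.03. Slc16a5 had -0.15, 0.86 and 1.69 in aged group 3 and 1.50, 2.01 and 2.37 in young (-0.99 ± 0.23, adjusted p = 0.00278), and 5 of 14 monocarboxylate and dicarboxylate carriers fell while Slc16a14 rose (0.81 ± 0.20, adjusted p = 0.00421). Slc14a1, a urea channel, had 0.26, 0.97 and 1.39 in aged group 3 and 1.62, 1.98 and 2.18 in young, without overlap (-1.03 ± 0.21, adjusted p = 0.00143).

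The phosphate carriers Slc34a1 and Slc34a2 went apart. Slc34a2, the carrier of epithelia, had -0.66, 1.81 and 3.48 in aged group 3 and -0.38, -0.28 and 0.03 in young (1.89 ± 0.60, adjusted p = 0.0186), with 7 libraries above every young one and 2 below. The Slc34a2 peak also overlaps another RefSeq gene, so its level is shared with a neighbour. Slc34a1, the carrier of kidney, had -1.87, 0.39 and 1.00 in aged group 3 and 1.38, 1.75 and 2.10 in young, without overlap (-1.60 ± 0.32, adjusted p = 0.000976). That peak held a median of 14 reads, lies 15167 bp from the gene's start and overlaps Pfn3, and the peak nearest to the Slc34a1 start went the other way, 1.57 in aged group 3 and 0.23 in young (1.34 ± 0.41, adjusted p = 0.0147). Mitochondrial carriers had 2 of 37 higher and 6 lower, and their differences lay between -0.24 and 0.59. Slc25a17, which serves peroxisomes, rose (0.45 ± 0.10, adjusted p = 0.00272), and Slc25a51, the mitochondrial NAD carrier, fell by 0.20 on the log2 scale (adjusted p = 0.00668). Slc9a9, an endosomal sodium/hydrogen exchanger, rose (0.33 ± 0.08, adjusted p = 0.00378) and Slc9b2 fell (-0.69 ± 0.18, adjusted p = 0.00682). Slc17a5, the sialic acid exporter of lysosomes, fell (-0.23 ± 0.07, adjusted p = 0.0233), a call lost without young replicate 5, and Slc35a3, the UDP-N-acetylglucosamine carrier, and Slc18a1, a vesicular monoamine carrier, rose by 0.18 and 0.16. The Slc18a1 peak also overlaps Atp6v1b2.

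**Figure D3:**
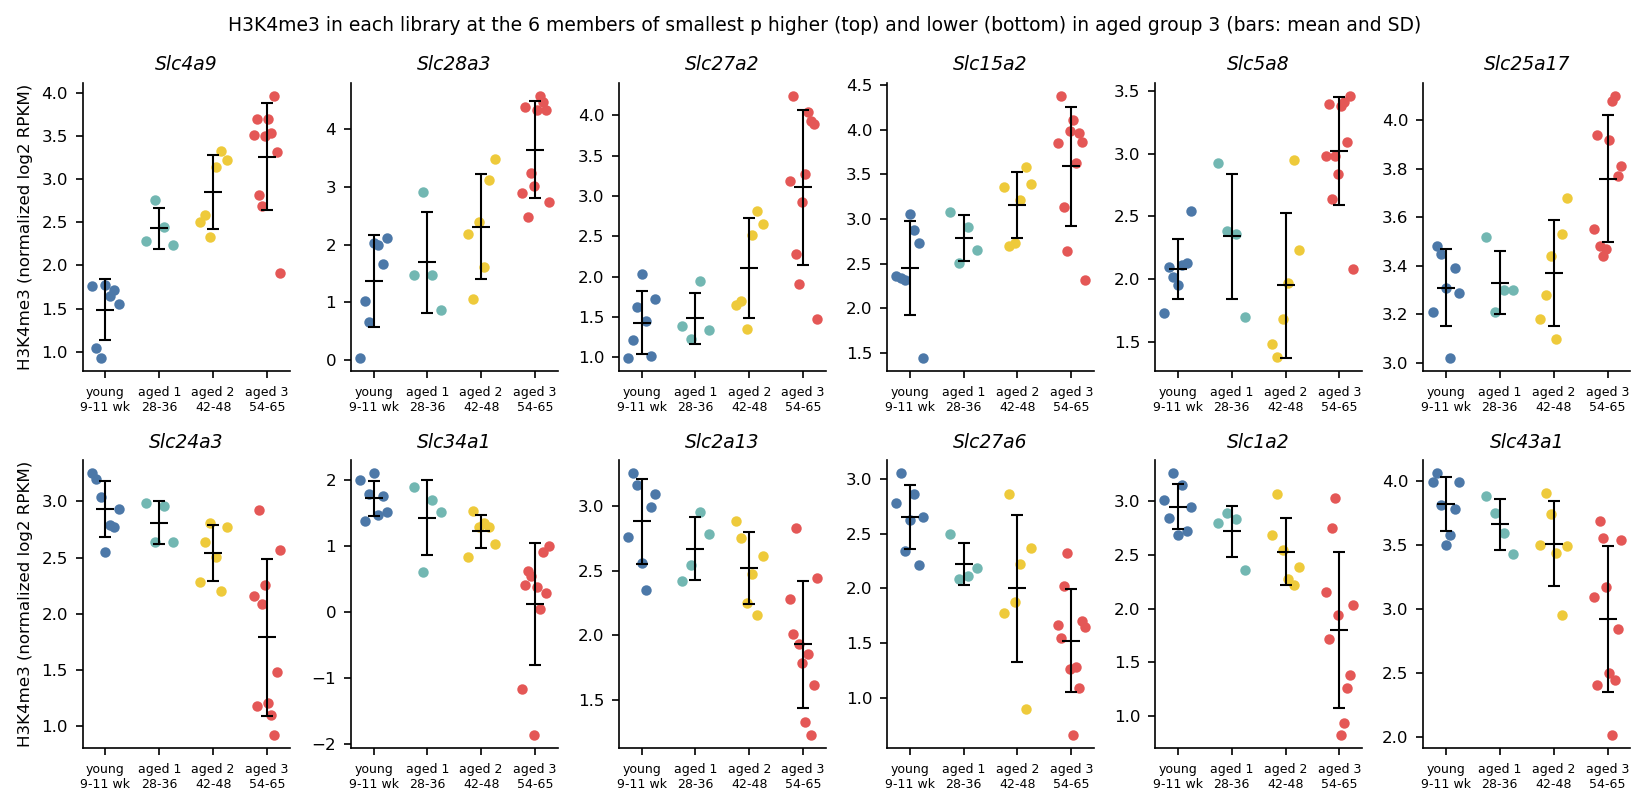
H3K4me3 in each library (points, quantile-normalized log2 RPKM, vertical axes of differing range that do not start at 0) at the 6 members with the smallest p that were higher (top) and the 6 that were lower (bottom) in aged group 3, over the 4 age groups from young to aged group 3, with mean and SD. At Slc4a9 and Slc28a3 every library of aged group 3 lies above every young library, and at Slc34a1 every one lies below.

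In 2 members, Slc4a9 and Slc28a3, all 10 libraries of aged group 3 lay above all 7 young libraries, and in 3, Slc14a1, Slc34a1 and Slc26a10, all lay below (Slc26a10 is named here because of those values). Over all peaks 0.918% lay above and 0.352% below in that way. A large part of the calls depended on what was put in the model. All peaks lost calls under the same terms. With the opening digit of the library code as a factor, 26 members passed (10.6%), all 26 among the 76, beside 9.03% of all peaks. With a term for the series of mouse numbers 38 passed (15.4%), 37 of them among the 76, beside 14% of all peaks. Within mice numbered under 100, 3 of aged group 3 and 6 young, Slc28a3, Slc4a9 and Slc5a8 still rose and Slc24a3, Slc34a1 and Slc6a2 still fell, and no other member passed, which is 2.44% of members, beside 1.73% of all peaks. In the values as deposited 42 members passed (17.1%), 41 of them among the 76, beside 22.6% of all peaks. Of the genes named in the text, Slc2a1, Slc5a1, Slc6a15, Slc15a1, Slc19a2, Slc23a4, Slc44a2, Slc44a3, Slc26a10, Slc9a9, Slc17a5, Slc18a1, Slc22a18, Slc25a17, Slc25a51, Slc29a3, Slc37a1, Slc35a3, Slc39a8, Slc39a10, Slc41a3 and Slc6a5 did not pass there. Without the 4 animals of low reads in peaks 59 members passed (24%), 57 of them among the 76, beside 25.2% of all peaks.

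Markers of cell types moved between the same groups. Of 20 measured markers of luminal and glandular epithelium, 18 were higher and 0 lower in aged group 3, and of 15 markers of endometrial stroma 0 were higher and 13 lower. The mean level of the epithelial list was 2.28 to 3.94 in aged group 3 and 2.14 to 2.85 in young, and that of the stromal list 1.67 to 3.56 in aged group 3 and 2.99 to 3.54 in young. Smooth muscle markers had 5 of 15 lower and 0 higher, with a mean level of 1.84 to 2.46 in aged group 3 and 2.36 to 2.79 in young, and ciliated cell markers had 6 of 9 lower. Blood endothelium had 3 of 14 higher and 2 lower, leukocytes had 6 of 17 higher and 1 lower, and adipocytes 1 of 2 higher and 1 lower. In H3K27ac the epithelial list had 10 of 20 higher and 0 lower and the stromal list 0 of 17 higher and 15 lower. No measured marker had 0 reads in every library. The epithelial minus the stromal mean was 0.92 to 2.27 in 7 libraries of aged group 3, but -0.23, -0.22 and -1.29 in replicates 3, 4 and 10, within or close to the young range of -1.39 to -0.27. With that difference as a covariate, 3 members passed: Slc4a9 (0.92) and Slc14a1 (-1.28), which had passed without it, and Slc10a6, a carrier of sulphated steroids (0.89), whose difference without the covariate was -0.92 and had not passed. Slc10a6 is named because so few passed. Over all peaks 123 rose and 46 fell with the covariate, which was itself built from H3K4me3 of the same libraries. Beyond these values the part of cell makeup in the calls was not tested.

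**Figure D4:**
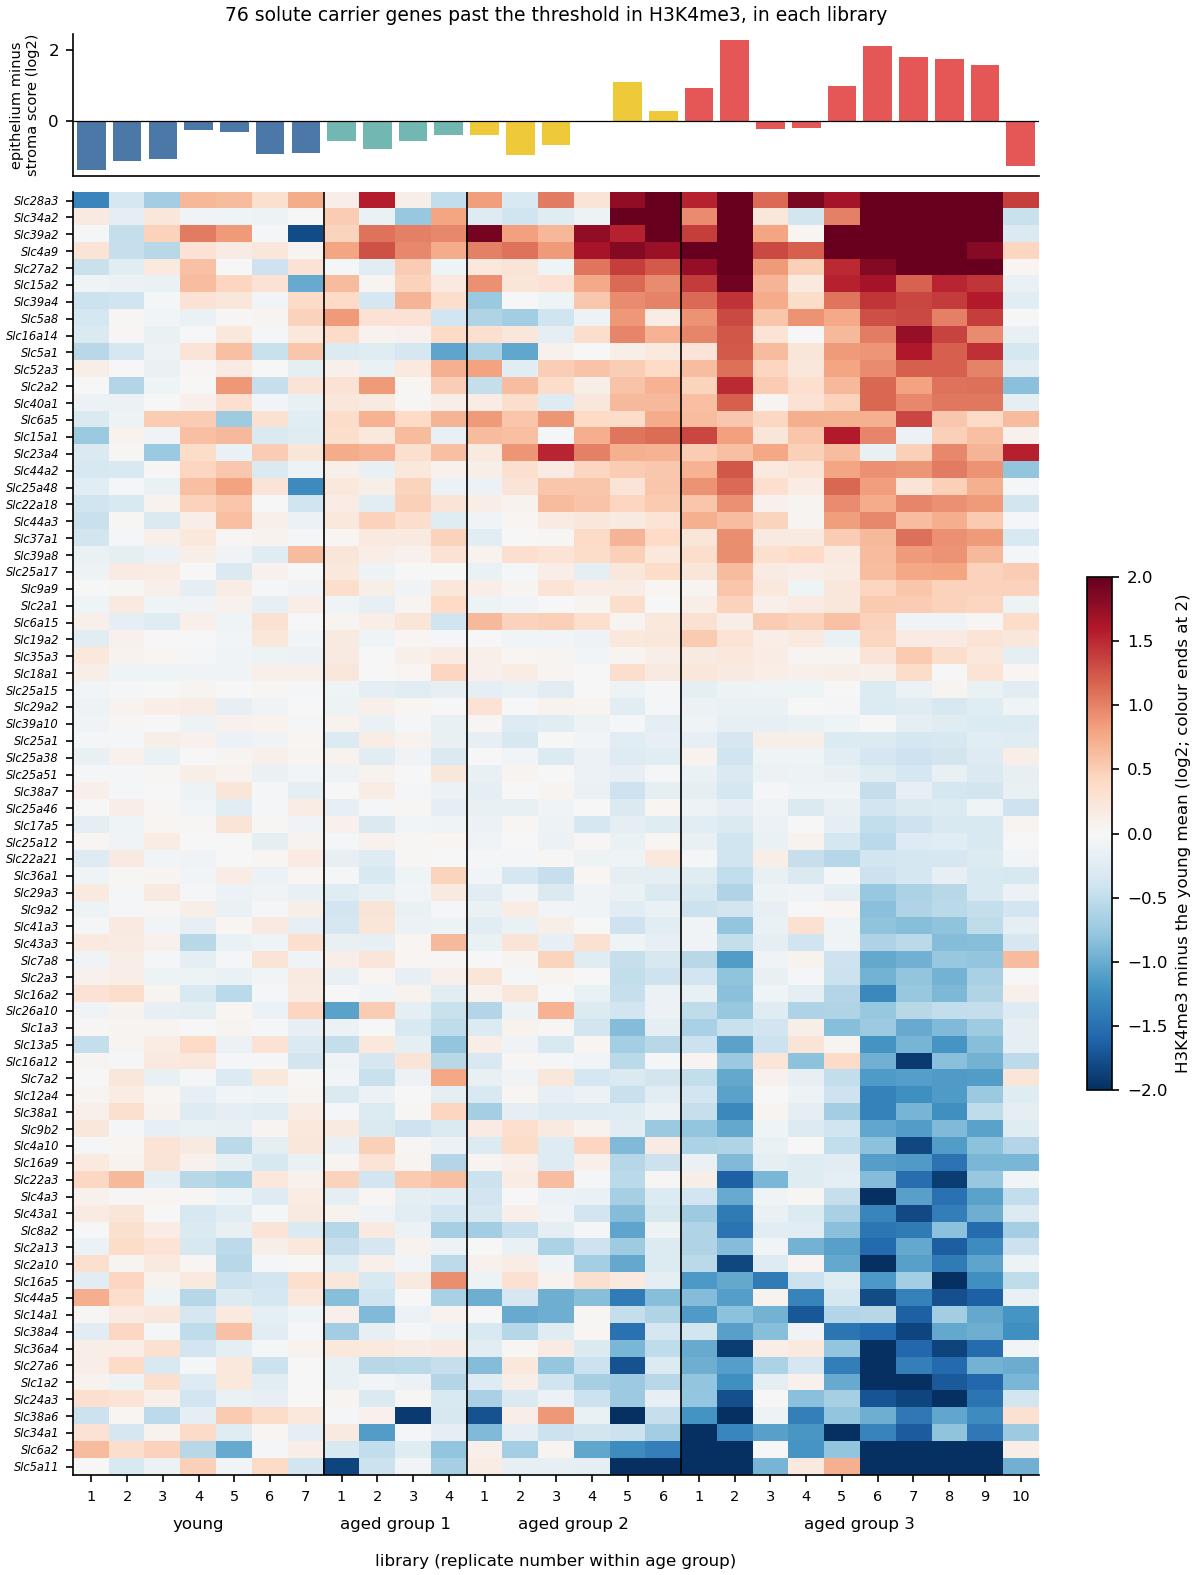
H3K4me3 of the 76 members that passed (rows, from the largest gain to the largest loss) in each of the 27 libraries (columns, by age group and replicate), as the log2 difference from the young mean, red above and blue below, with colours ending at 2; bars on top give each library's epithelium minus stroma score. In aged group 3, replicates 3, 4 and 10 (scores -0.23, -0.22 and -1.29) are paler than replicates 2 and 6 to 9 in most rows.

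Genes with a known place in the uterus were looked up whatever their values. Of 25 such genes, 22 were members, and 4 of these rose (Slc2a1, Slc34a2, Slc39a8 and Slc40a1), 2 fell (Slc2a3 and Slc22a3) and 16 did not pass. Slc22a3, an organic cation and monoamine carrier, differed by -0.80 ± 0.29 (adjusted p = 0.0359), a call that leaving out any of 8 libraries ended. Slc12a2, the sodium/potassium/chloride cotransporter of secreting epithelia, differed by 0.26 ± 0.11 (adjusted p = 0.066), and Slc26a4, the chloride/iodide exchanger pendrin, by 0.47 ± 0.25 (adjusted p = 0.144). Slc4a4, a sodium/bicarbonate cotransporter, differed by -0.16 ± 0.09 (adjusted p = 0.145). Slc7a1 and Slc3a2, which serve arginine and large amino acid uptake, differed by 0.11 ± 0.07 and 0.14 ± 0.06, and Slc38a2 by 0.11 ± 0.05. The taurine carrier Slc6a6 (-0.09 ± 0.12), the amino acid carrier Slc6a14 (0.04 ± 0.23), the lactate carriers Slc16a1 (-0.06 ± 0.09) and Slc16a3 (0.00 ± 0.18) and the insulin-responsive Slc2a4 (-0.14 ± 0.14) had differences about as large as, or smaller than, their own SE. Slc2a8 (-0.16 ± 0.09), Slc39a6 (-0.14 ± 0.07), Slc29a1 (0.26 ± 0.21) and Slc11a1 (-0.03 ± 0.09) did not pass either. Slc26a6, Slc7a5 and Slc30a1 were not analysed here.

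H3K27ac, the mark of active promoters and enhancers, could be followed at 202 members, 82.1% of them, against 84.8% of named genes. In aged group 3 it rose at 15 and fell at 32 of the 202, which is 23.3%, beside 29.3% of all H3K27ac peaks. With libraries centred on their medians in place of quantile normalization, 22 rose (10.9%) and 29 fell (14.4%), beside 18.4% and 18.3% of all H3K27ac peaks. Higher members made up 7.43% and lower ones 15.8%, beside 14.4% and 14.9% of all H3K27ac peaks. Over the highest H3K27ac peak of each named gene the shares were 9.75% and 18.3%, but such a peak need not overlap the gene's H3K4me3 peak. Shares of named genes by the members' own rule follow below, split by the H3K4me3 call. No member had all libraries of aged group 3 beyond all young ones, which 0.35% of peaks showed above and 0.21% below. Sugar carriers had 2 higher and 6 lower of 19, organic ion and drug carriers 4 and 3 of 17, and amino acid carriers 1 and 7 of 32. Mitochondrial carriers had 1 and 2 of 37. Zinc transporters had 1 and 1 of 16, carriers of iron, copper and other metals 1 and 2 of 8, and vitamin carriers 1 and 2 of 10.

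Members called in both marks went the same way in each, with 1 exception. H3K27ac was measured in other libraries of the same mice. Of 27 members with higher H3K4me3 and an H3K27ac peak, 11 also rose in H3K27ac (40.7%), 0 fell and 16 did not pass. Of 36 with lower H3K4me3, 17 also fell (47.2%), 1 rose and 18 did not pass. Where each named gene counted once, 42.7% of those higher in H3K4me3 also rose in H3K27ac and 0.552% fell, and 58.1% of those lower also fell and 0.193% rose. The 11 were Slc15a1, Slc15a2, Slc16a14, Slc22a18, Slc27a2, Slc28a3, Slc34a2, Slc37a1, Slc39a2, Slc40a1 and Slc52a3. The 1 member called in opposite directions was Slc38a7, a lysosomal glutamine exporter, with -0.22 ± 0.07 in H3K4me3 and 0.32 ± 0.10 in H3K27ac. Among 139 members that did not pass in H3K4me3, 3 rose (2.16%) and 15 fell (10.8%) in H3K27ac, beside 2.45% and 13.9% of such named genes.

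**Figure D5:**
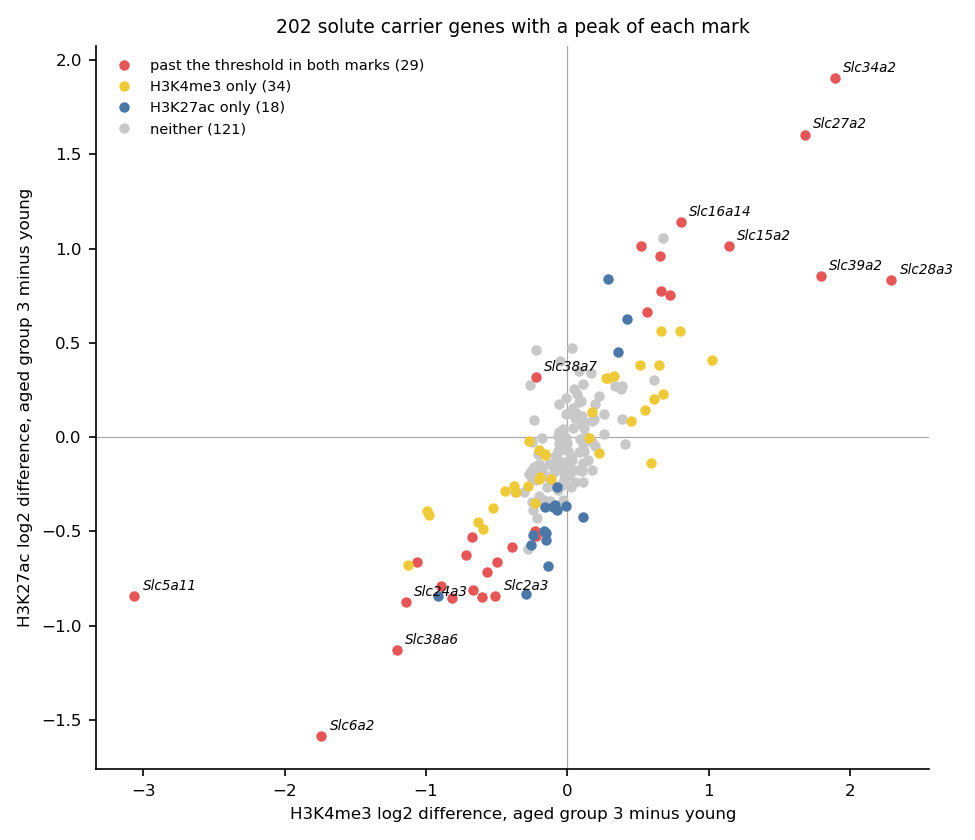
Log2 difference between aged group 3 and young in H3K4me3 (horizontal) and in H3K27ac (vertical) for the 202 members with a peak of each mark, one point per gene, coloured by whether each mark passed. Slc34a2, Slc27a2, Slc16a14 and Slc15a2 lie at the upper right and Slc6a2 and Slc38a6 at the lower left, and Slc38a7 is the point past the threshold in both marks with opposite signs.

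Slc15a2 had the smallest p among gains of H3K27ac. Its H3K27ac levels were 0.94, 2.12 and 2.50 in aged group 3 and 0.33, 1.04 and 1.58 in young (1.01 ± 0.20, adjusted p = 0.00246). Slc27a2 had -0.80, 1.63 and 2.41 in aged group 3 and -0.65, -0.46 and 0.42 in young (1.60 ± 0.40, adjusted p = 0.00675), a range in aged group 3 that took in the young one. Slc34a2 had -1.31, 1.65 and 2.26 in aged group 3 and -1.75, -0.96 and 0.38 in young (1.90 ± 0.53, adjusted p = 0.0112). Slc37a1, a glucose-6-phosphate exchanger of the endoplasmic reticulum, differed by 1.01 ± 0.22 (adjusted p = 0.00336) and Slc28a3 by 0.83 ± 0.20 (adjusted p = 0.00599). Slc5a9, a mannose and glucose carrier, differed by 0.84 ± 0.18 (adjusted p = 0.00325), Slc25a45 by 0.45 ± 0.11 and Slc16a11 by 0.63 ± 0.15, and these 3 had not passed in H3K4me3.

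Among losses of H3K27ac, Slc4a3 had 0.74, 1.28 and 2.03 in aged group 3 and 1.93, 2.14 and 2.40 in young (-0.85 ± 0.17, adjusted p = 0.00246). Slc12a4 had 0.68, 1.10 and 2.21 in aged group 3 and 1.77, 2.10 and 2.37 in young (-0.81 ± 0.18, adjusted p = 0.00428). Slc6a2 had -2.03, -0.75 and 1.11 in aged group 3 and -0.46, 1.44 and 2.16 in young (-1.59 ± 0.44, adjusted p = 0.0111). At each of these genes the 2 groups overlapped. Slc2a3 (-0.84 ± 0.22), Slc24a3 (-0.88 ± 0.24), Slc43a1 (-0.79 ± 0.21), Slc38a6 (-1.13 ± 0.30) and Slc17a5 (-0.50 ± 0.12) fell in H3K27ac as in H3K4me3. Slc46a1, the proton-coupled folate carrier, fell in H3K27ac and did not pass in H3K4me3 (-0.69 ± 0.17, adjusted p = 0.00729). Slc25a46, a protein of the mitochondrial outer membrane, fell by 0.52 in H3K27ac and by 0.22 in H3K4me3. Of the 47 H3K27ac calls, 41 held in the values as deposited, 33 without the 4 animals of low reads in peaks and 28 with the mouse number series. Most were lost under some other models. With the digit of the library code as a factor Slc25a45 and Slc4a3 alone passed, and without the libraries of digit 6 Slc15a2, Slc4a3 and Slc5a9. With the epithelium minus stroma covariate, or within mice numbered under 100, 0 members passed. Of all H3K27ac peaks 2.51% passed with the digit factor, 3.48% without digit 6, 0.0662% with the covariate and 0.0166% within mice numbered under 100. In that last fit, of 3 mice of aged group 3 and 6 young mice, the differences were 1.13 at Slc15a2, 1.65 at Slc27a2, 1.67 at Slc34a2 and -1.46 at Slc6a2, which did not pass.

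The intermediate ages showed little that passed. In aged group 2 against young, Slc4a9 alone of the members rose in H3K4me3 (0.407%), beside 0.217% of all peaks in either direction and 0.205% higher, and 0 fell, beside 0.0116%. Its levels were 2.33 at the lowest, 2.86 at the median and 3.32 at the highest in aged group 2, above all young libraries (1.36 ± 0.25, adjusted p = 0.00966). That call was lost with a term for the mouse number series and without the libraries of digit 6. In aged group 1 the 4 libraries had 2.28, 2.76, 2.44 and 2.24 at Slc4a9, also above every young library, but the difference of 0.94 ± 0.28 did not pass (adjusted p = 0.783). The share of all peaks above every young library was not computed for aged groups 1 and 2. In aged group 1 against young 0 members passed in limma, beside 0.00387% of all peaks. There 11 members had an unadjusted p under 0.05, beside 932 of 25827 peaks. Aged group 2 against aged group 1 gave 0 members and 0% of peaks in H3K4me3. Under 0.05 unadjusted were 5 members, beside 659 of 25827 peaks. For H3K27ac 0 members passed in either comparison with young or between these 2 groups, beside 0.011%, 0% and 0% of peaks. In limma 19, 12 and 7 of 202 members were under 0.05 unadjusted, beside 4849, 2134 and 1511 of 54354 peaks.

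Between aged groups 3 and 2, H3K4me3 rose at Slc5a8 (1.08 ± 0.22, adjusted p = 0.0405) and fell at Slc16a5 (-1.09 ± 0.24, adjusted p = 0.0486), 0.813% of members, beside 0.205% of all peaks in either direction, 0.0542% higher and 0.151% lower. Slc5a8 had 2.08, 3.03 and 3.46 in aged group 3 and 1.38, 1.83 and 2.95 in aged group 2. Slc16a5 had -0.15, 0.86 and 1.69 in aged group 3 and 1.75, 2.07 and 2.26 in aged group 2, without overlap. The share of all peaks without overlap between these groups was not computed. The count of members that passed swung with single libraries: it was 24 without aged group 3 replicate 10, 18 without its replicate 4, 17 without its replicate 3, 12 without aged group 2 replicate 5, and 0 when any of 11 other libraries of these groups was left out. In H3K27ac 0 members and 0% of peaks passed in limma. There 27 of 202 members were under 0.05 unadjusted, beside 8718 of 54354 peaks.

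A linear term in age over all 27 libraries called 31 members higher and 46 lower in H3K4me3 (31.3%), beside 32.5% of all peaks. Per 10 weeks of age H3K4me3 rose by 0.34 ± 0.04 at Slc4a9 (adjusted p = 1.53e-06), by 0.44 ± 0.08 at Slc28a3 and by 0.34 ± 0.06 at Slc27a2. It fell per 10 weeks by 0.22 at Slc27a6, by 0.31 at Slc34a1 and by 0.22 at Slc1a2. In H3K27ac 17 members rose and 33 fell with age (24.8%), beside 32.2% of all peaks, led by Slc15a2 (0.20 ± 0.04 per 10 weeks), Slc37a1 and Slc28a3 and by falls at Slc4a3 (-0.16 ± 0.03), Slc25a46 and Slc12a4. The term uses the same libraries as the comparison of the oldest with the youngest and is no separate support for it.

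Many members had more than 1 peak. The 110 further H3K4me3 peaks of 75 members had a median level of 1.62, and 28 of them rose and 19 fell in aged group 3, 42.7% of them, beside 30.7% of all peaks. All peaks take in the highest peak of each named gene, where 27.2% passed, so the remaining peaks passed more often than 30.7%. Their share was not computed, so whether 42.7% is an excess at these genes was not tested. Of these calls 30 were at genes whose member peak had not passed. At Slc25a26 a peak 63079 bp from the start averaged 2.18 in aged group 3 and 0.38 in young (1.80 ± 0.32, adjusted p = 0.0004), and the member peak at the start differed by -0.01. At Slc29a1, a nucleoside carrier, a peak at chr17:45591409-45596222 fell (1.75 in aged group 3, 2.70 in young) and one 11358 bp from a start rose (1.79 in aged group 3, 0.45 in young). In 5 cases a further peak went opposite to a member peak that had passed, at Slc16a9 (2 peaks), Slc17a5, Slc34a1 and Slc14a1. Members without an H3K27ac peak had a median level of 1.86 and a median length of 1168 bp, against 3.6 and 2386.5 bp for those with one. Of the 44 without one, 2 rose and 11 fell, and of the 202 with one 27 rose and 36 fell, beside 14.2% and 16.4% of all peaks. Shares over all peaks with and without an H3K27ac peak were not computed.

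Partners of the solute carriers, which supply their gradients or act beside them, were counted on lists of their own. Of 19 sodium pump subunits and epithelial ion channels, 5 rose and 5 fell in H3K4me3. Fxyd3, a regulator of the sodium pump, averaged 3.52 in aged group 3 and 2.35 in young (1.17 ± 0.21, adjusted p = 0.000364), and Ano1, a calcium-activated chloride channel, 1.77 in aged group 3 and 2.68 in young (-0.91 ± 0.22, adjusted p = 0.0037). Of 5 aquaporins Aqp5 rose, with 2.40 in aged group 3 and -0.30 in young (2.70 ± 0.66, adjusted p = 0.00386), and Aqp1 fell (-0.78 ± 0.28, adjusted p = 0.0368). Of 9 carbonic anhydrases 3 rose, led by Car2 (0.90 ± 0.19, adjusted p = 0.00132), and 2 fell, led by Car11 (-0.35 ± 0.12, adjusted p = 0.0248). ABC transporters, which pump substrates with ATP, had 1 of 27 higher, the conjugate efflux pump Abcc2 with 3.12 in aged group 3 and 2.66 in young (0.46 ± 0.14, adjusted p = 0.0182), and 9 lower, led by Abcg4 with 2.55 in aged group 3 and 3.63 in young (-1.08 ± 0.21, adjusted p = 0.00091). Of 7 organic anion transporting polypeptides Slco4a1 rose (0.90 ± 0.24, adjusted p = 0.00742) and 0 fell, and of 16 kinases and scaffolds that act on transporters 2 rose, led by Wnk2 (0.76), and 0 fell. In H3K27ac the same lists had 3 higher and 6 lower of 18 pump and channel genes, 2 and 1 of 5 aquaporins, 4 and 1 of 8 carbonic anhydrases, 2 and 6 of 25 ABC transporters, 1 and 0 of 7 organic anion transporting polypeptides and 2 and 1 of 15 kinases and scaffolds.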

How the data were processed

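Native chromatin immunoprecipitation used 20000 nuclei per sample, micrococcal nuclease for 7.5 minutes and 250 ng of antibody, with paired reads of 75 bases, per the labels' protocols. The authors deposited 1 table per mark of log2 RPKM values per peak, with 27 libraries each, from a peak set shared by all libraries. Reads were aligned to GRCm38, and the tools named are deepTools 3.5.1, ChIPseeker 1.34.1, Bowtie2, MACS2 2.2.9.1, DESeq2 and DiffBind 3.8.0, per the submitters' processing notes, which give no role or order. Peaks carry the gene name the authors gave them. Values came out as whole reads within a tolerance of 0.05, with a peak without reads set at 0.9 read, so the totals per library given in the report are derived from the deposited log2 RPKM values.

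Peaks of chromosomes 1 to 19 and X (25827 and 54354) were quantile-normalized and fitted with limma 3.58.1 in R 4.3.3, as 4 group means with a trended prior, two-sided, and separately with a linear term in age. Benjamini-Hochberg adjustment ran over all peaks of a mark. The fit was checked on simulated data. Each mouse gave 1 library per mark, so p-values measure the spread between mice and preparations together. Mouse numbers come from the sample labels and library codes from the column headers of the deposited values, and neither source explains them. The H3K4me3 header of young replicate 4 lacked the digit, so that of the same mouse's H3K27ac header was used. RefSeq tables (GRCm38.p6) gave gene starts and promoters. The genes named were, among members past the threshold, the 10 of smallest p in each direction and mark for aged group 3 against young, the 3 of smallest p in each direction and mark for the other contrasts and the age term, and the one of smallest p in each direction of each family in H3K4me3. The 5 members of highest and the 5 of lowest level and 25 transporters with a known place in the uterus were named whatever their values, and of each partner list the gene of smallest p in each direction called in H3K4me3. Slc4a10, Slc5a1, Slc5a11, Slc6a15, Slc10a6, Slc15a1, Slc16a9, Slc19a2, Slc23a4, Slc26a10, Slc36a4, Slc38a4, Slc38a7, Slc39a4, Slc44a2 and Slc44a3 were named after their values were seen. The members, families and marker lists were chosen with earlier results of these data known. The values as deposited, other scalings and filters, batch terms, a cell-type covariate, a replicate block and single libraries left out were tried as alternatives. Input libraries and 8 peaks of chromosome Y in each table were left out. The values of 1 further member are not reported here.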

Additional observations from a re-analysis of the deposited data

Results flagged for a closer look

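In 66 groups of 4 to 10 libraries at named members, a single library lay far from the rest of its group 5 times, and chance alone gives about 1 in 20. Young replicate 7 had 3.95 in H3K4me3 at Slc39a8, with its nearest neighbour at 3.45, and 4.02 at Slc1a3, with its nearest neighbour at 4.14. Aged group 3 replicate 10 had 0.89 in H3K27ac at Slc52a3, with its nearest neighbour at 1.47, and 1.27 at Slc40a1, with its nearest neighbour at 2.27. That replicate also had the lowest epithelium minus stroma score of its group, -1.29 in H3K4me3. Young replicate 4 had 1.23 in H3K27ac at Slc9a9, with its nearest neighbour at 1.75. The part of these libraries' makeup in the values was not tested.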

How the results depend on the processing

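For aged group 3 against young in H3K4me3, 76 members passed (29 higher, 47 lower). The values as deposited gave 42 (11 and 31), the library code digit as a factor 26 (8 and 18), the mouse number series 38 (16 and 22), the epithelium minus stroma covariate 3 (2 and 1), libraries without digit 6 gave 30 (12 and 18), and mice numbered under 100 alone 6 (3 and 3). Of all H3K4me3 peaks 9.52% passed without digit 6, and the other settings are set beside all peaks further above. As deposited, the median of all peaks lay at -0.139 in H3K4me3 and -0.138 in H3K27ac, against -0.023 and -0.063 after quantile normalization. In H3K27ac 47 passed (15 and 32): the digit factor left 2 (1 and 1), the mouse series 30 with 16 lower, the covariate 0 (0 and 0), libraries without digit 6 left 3 (2 and 1), mice under 100 left 0 (0 and 0), and without the 4 animals of low reads in peaks 18 were lower. Of all H3K27ac peaks 13.5% passed with the mouse series and 21.9% without the 4 animals. With a linear term in age, 77 H3K4me3 members passed, against 45 as deposited, 32 with the digit factor, 4 with the covariate and 33 without digit 6, and 50 H3K27ac members passed, against 9, 0 and 17 for the last 3 settings. All peaks lost linear-term calls too. In H3K4me3 3911 rose and 4487 fell, against 2319 and 3762, 1434 and 1408, 129 and 44, and 1420 and 1395 in those settings. In H3K27ac 8549 rose and 8954 fell, against 1450 and 1479, 39 and 10, and 1898 and 2145 for the last 3. For aged group 2 against young, 1 member passed in H3K4me3, 0 with the mouse series or without digit 6 and 2 with the covariate. For aged group 3 against aged group 2, 2 passed, 1 with peaks of low level left out, and 0 as deposited, with the digit factor, the covariate, the replicate block, without digit 6, without the 4 animals or in a fit of these 2 groups only. Leaving out single libraries gave 58 to 93 H3K4me3 members for aged group 3 against young (22 to 38 higher, 34 to 58 lower), 36 to 62 in H3K27ac (15 to 24 higher, 21 to 45 lower), 62 to 95 and 37 to 64 for the linear term, 1 to 1 for aged group 2 against young and 0 to 24 for aged group 3 against aged group 2. Matching shares of all peaks with single libraries left out are not given here. For aged group 3 against young, the lowest totals came without young replicate 2. Without aged group 3 replicate 10, 93 H3K4me3 and 24 higher H3K27ac members passed. With the covariate the direction turned at 19 of the 76 H3K4me3 and 5 of the 47 H3K27ac calls. Among genes named by rule these were, in H3K4me3, Slc16a14 (-0.034), Slc22a18 (-0.11), Slc2a1 (-0.021), Slc2a3 (0.018), Slc34a2 (-0.61), Slc37a1 (-0.12), Slc38a6 (0.035), Slc40a1 (-0.046) and Slc41a3 (0.062), and in H3K27ac Slc40a1 (-0.052). With the peak nearest to the start H3K4me3 turned at Slc34a1 (1.34). The cause was not tested. Replicate numbers did not pair the mice: same-numbered libraries of aged group 3 and young correlated at -0.22 to 0.20 in H3K4me3 and -0.30 to 0.27 in H3K27ac, and a fit with the replicate block called 69 (32 and 37) and 46 (20 and 26). Members with few reads, such as Slc34a1 with a median of 14, rest on little depth.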
